A study of Mus musculus with 8 samples.

Results

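The precursors of mir-297, mir-466, mir-467 and mir-669 were compared in small RNA of myoblasts, from 4 old mice and 4 young ones of the strain C57BL/6J. Members were chosen by name alone: every precursor whose name begins with one of these 4 numbers, followed by a letter, a hyphen or the end of the name. This gave 81 of the 1181 precursors in the deposited table, namely 6 of mir-297, 28 of mir-466, 17 of mir-467 and 30 of mir-669. Myoblasts are the proliferating muscle precursor cells that fuse into fibres. The labels give age only as old or young and number 4 mice in each group (old 1 to old 4, young 1 to young 4). All 8 share the strain and the cell type, no treatment or genotype is named, and how the cells were isolated is not given in the sources used here. Values are log2 levels scaled by precursor length and library size, with every linear value under 1 listed as 0.

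These precursors form one of the largest microRNA clusters of the mouse, in an intron of Sfmbt2, which encodes a Polycomb group protein. The host gene is known as an imprinted gene, read from the paternal copy in the early embryo and placenta, and the cluster is a rodent feature made of tandem repeats. A microRNA precursor is a hairpin that is cut to a mature strand of about the length of a small interfering RNA, and bases 2 to 8 of the mature strand, the seed, choose its targets. Of the members, miR-669a is known to repress MyoD in cardiac progenitors, miR-467a to repress thrombospondin-1, miR-466h to act in apoptosis of hamster ovary cells, and miR-669c to be higher in the liver of aged mice.

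Sequences are shown for members outside Sfmbt2. RefSeq (GRCm38) held hairpins for 4 and mature strands for 8 of the members, none of them from the cluster in the intron. The mature strands are shown 5′ to 3′ with the seed in capitals, because they fall into a UG-rich kind and an AC-rich kind.
miR-466j: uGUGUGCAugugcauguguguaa
miR-466k: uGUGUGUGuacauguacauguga
miR-669n: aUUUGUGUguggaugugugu
miR-467h: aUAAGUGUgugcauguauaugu
miR-466i-3p: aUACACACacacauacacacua
miR-466q: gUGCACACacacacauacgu
miR-467f: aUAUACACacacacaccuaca
miR-467g: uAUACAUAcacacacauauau
No 2 of these 8 mature strands shared a seed, although 4 are named mir-466 and 3 mir-467. G and U made up 68.2% to 90.0% of the first 4 and 13.6% to 30% of the last 4. Among the mature microRNAs of the table outside the 4 groups, 1 shared a seed with them, miR-668-5p of chromosome 12, shown here with its seed in capitals beside miR-467h above.
miR-668-5p: gUAAGUGUgccucgggugagcaug
The mir-668 precursor measured 5.70, 6.47, 9.19 and 5.32 in old 1 to old 4, against 8.51, 9.05, 10.32 and 6.38 in young 1 to young 4, whereas mir-467h was at 0 in all 8.

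The hairpins show where the mature strand sits in the precursor. Those of mir-669n (chr3:115979902-115979955, plus strand, GRCm38, in an intron of the minus-strand gene Slc30a7) and mir-466k (chr3:85467377-85467498, plus strand, in an intron of the minus-strand gene Gm37240) are shown with the mature part in capitals.
mir-669n: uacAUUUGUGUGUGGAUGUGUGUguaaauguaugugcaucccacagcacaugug
mir-466k: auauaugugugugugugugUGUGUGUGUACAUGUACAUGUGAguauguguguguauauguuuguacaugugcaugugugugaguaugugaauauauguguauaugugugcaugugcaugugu
In the mir-466k hairpin 60.7% of the bases lay in the dinucleotide UG, in that of mir-669n 48.1%, in that of mir-297a-1 44.7% and in that of mir-467h 41.3%. These were the highest 4 of the 1005 hairpins with a RefSeq sequence, whose median was 17.7%, and the next was Mir5123 at 38.6%. None of these 4 had a value above 0 in any library except mir-297a-1, at 0.60 in old 2. Hairpins of the other members, all of those in Sfmbt2 among them, had no sequence there and were not ranked.

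Of the 81 members, 71 lay on the plus strand of chromosome 2 within 51617 bases (chr2:10466663-10518279), from mir-466m to mir-669h. All 71 fell in 1 intron of Sfmbt2, of 62472 bases, the intron between exons 10 and 11 of the transcript Sfmbt2-201 (GRCm38, GENCODE M21). No other precursor of the table lay inside Sfmbt2. In the middle of the cluster a unit with a mir-467a, a mir-466b or mir-466c and a mir-669a or mir-669p recurred. Successive starts from mir-467a-3 to mir-467a-9 (7 copies) were 2413 to 2470 bases apart, with a median of 2459.5. The other 10 members lay elsewhere: mir-466q, mir-466k and mir-669n on chromosome 3, mir-467g on 5, mir-297a-1 on 7, mir-467h on 9, mir-466j on 10, mir-467f on 11, and mir-466i and mir-466f-4 on 13. Of these, 6 were in introns of Tnik, Gm37240, Slc30a7, Grk4, Fxr2 and Cdk13, and 4 were between genes. Only mir-466q, in Tnik, lay on the strand of its gene. mir-466k, mir-669n, mir-467g, mir-467f and mir-466i lay on the strand opposite to the gene.

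The deposited values, read as reads per length and library size, imply libraries of 25.1 to 39.4 M reads. A pair of libraries stood apart from their age groups elsewhere in the table. Over the 38 compared precursors of the Dlk1-Dio3 region on chromosome 12, the mean log2 level was 4.86, 5.38, 8.98 and 4.81 in old 1 to old 4, against 8.36, 7.32, 9.55 and 5.52 in young 1 to young 4. Old 3 thus lay among the young libraries and young 4 near the other old ones. Results are therefore also given without both, a choice made on measured values.

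Most of the cluster was detectable, at low levels. A value above 0 in any library was listed for 63 of the 81 members, against 781 of the 1181 precursors of the table. In all 8 libraries 28 members were above 0. At 0 throughout were 18 members, against 400 of the 1181. Inside Sfmbt2 61 of 71 were detected, elsewhere 2 of 10. The detected ones outside were mir-297a-1 and mir-466q, which measured 1.23 in old 1, 0.30 in young 2 and 2.50 in young 4 and 0 in the other libraries. By group, 5 of 6 mir-297, 20 of 28 mir-466, 14 of 17 mir-467 and 24 of 30 mir-669 precursors were detected. Those at 0 were mostly the long entries. Of the 16 members of 119 to 127 bases 13 were at 0 throughout, against 5 of the 65 members of 54 to 109 bases. Within Sfmbt2 alone these counts were 6 of 9 and 4 of 62. This split by length, at the widest gap above the median length, was chosen after the values were seen, and length enters the scale itself, since 1 read of a longer precursor gives a lower value. The floor stood at 2.13 to 3.35 reads per library for a precursor of 85 bases, so a member at 0 was not detectable at this depth and may have had a few reads.

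The number of members above 0 was 54, 60, 48 and 54 in old 1 to old 4, against 43, 47, 44 and 56 in young 1 to young 4. Over the whole table it was 605, 635, 627 and 614 in the old libraries, against 588, 604, 613 and 626 in the young. The means of the member counts were 54.0 ± 4.90 and 47.5 ± 5.92 (SD, n = 4 each), and the highest young library lay above 3 of the 4 old ones. With the numbered copies of a name counted once, the difference of 6.5 fell to 2.5 (23.8 ± 3.30 against 21.2 ± 3.30 names), less than the spread within either age. Without both old 3 and young 4 the counts were 56.0 ± 3.46 and 44.7 ± 2.08 members (n = 3 each). On this count old 3 was the lowest old library and young 4 the highest young one, so leaving both out had to widen the gap.

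**Figure D1:**
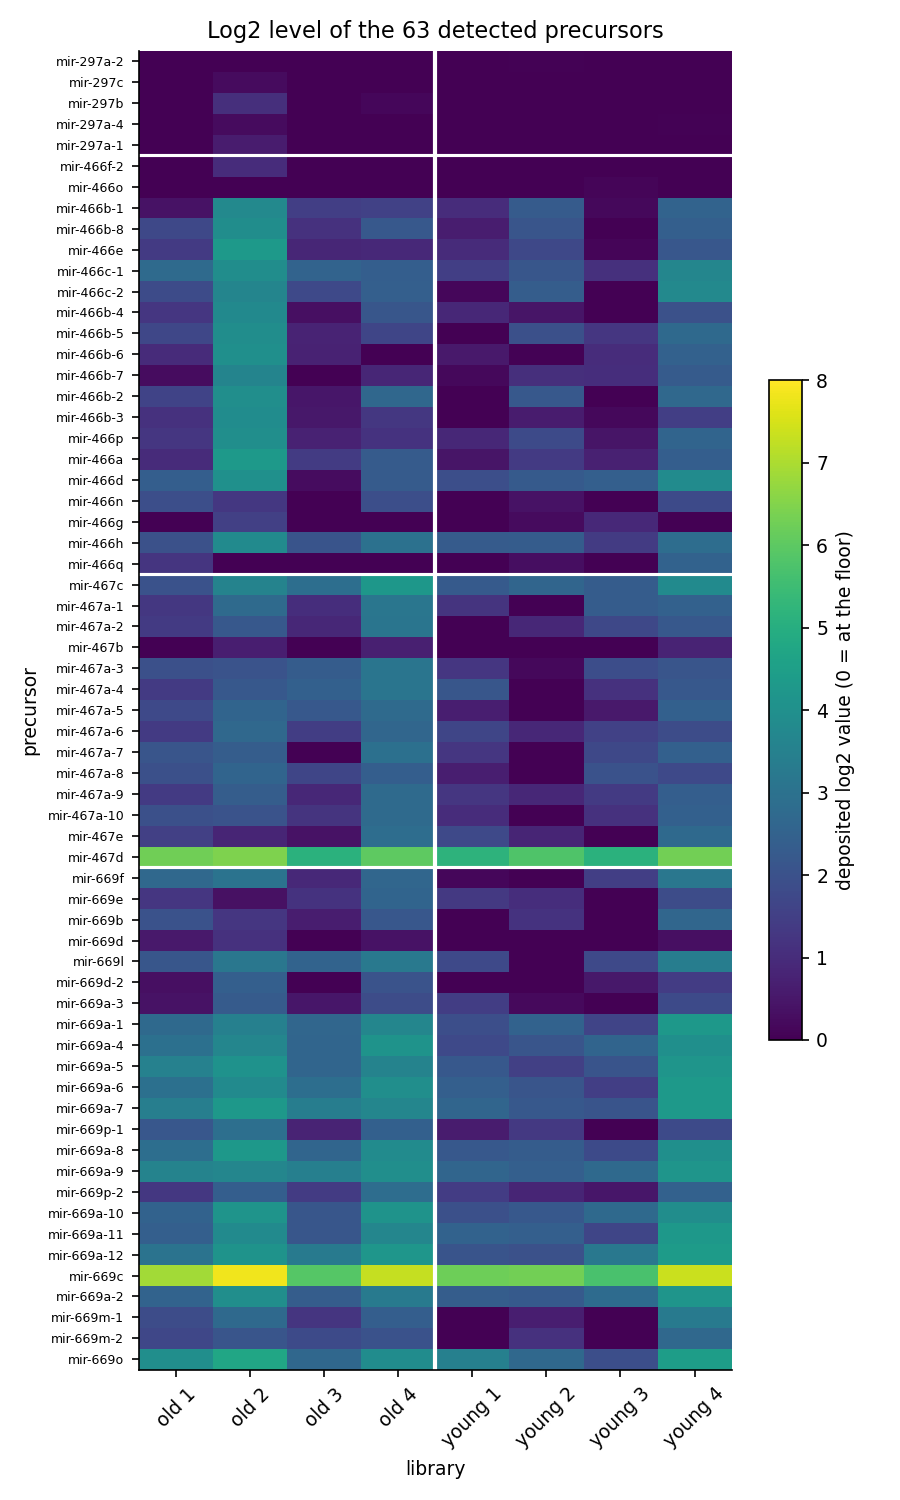
Deposited log2 value (colour, from 0 at the floor to 8) of the 63 detected members (vertical axis, by group and then by position) in the 8 libraries (horizontal axis). The bright lines are mir-467d and mir-669c, and most mir-466 members are brightest in old 2.

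A pair of members near the 3′ end of the cluster stood above the rest. mir-669c (chr2:10509296-10509404) measured 6.90, 7.84, 5.88 and 7.29 in old 1 to old 4, against 6.22, 6.29, 5.70 and 7.37 in young 1 to young 4. Old 2, young 4 and old 4 were the highest libraries, and the ages overlapped. mir-467d (chr2:10507630-10507714) measured 6.25, 6.45, 5.11 and 6.01 in the old libraries, against 5.17, 5.81, 5.11 and 6.29 in the young. Its order differed from that of mir-669c in that old 1 lay above old 4. By mean log2 level over the 8 libraries mir-669c ranked 207 and mir-467d 228 of the 781 precursors above 0 in any library, and both lay below the median of the 359 compared precursors, 7.67. The highest mir-466 was mir-466c-1, with a mean of 2.50, and the highest mir-297 was mir-297b, with a mean of 0.15. In old 1 to old 4 mir-466c-1 was at 2.77, 3.92, 2.56 and 2.38; young 1 to young 4 gave 1.47, 2.15, 1.12 and 3.66. mir-297b was above 0 only in old 2 (1.08) and old 4 (0.13).

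**Figure D2:**
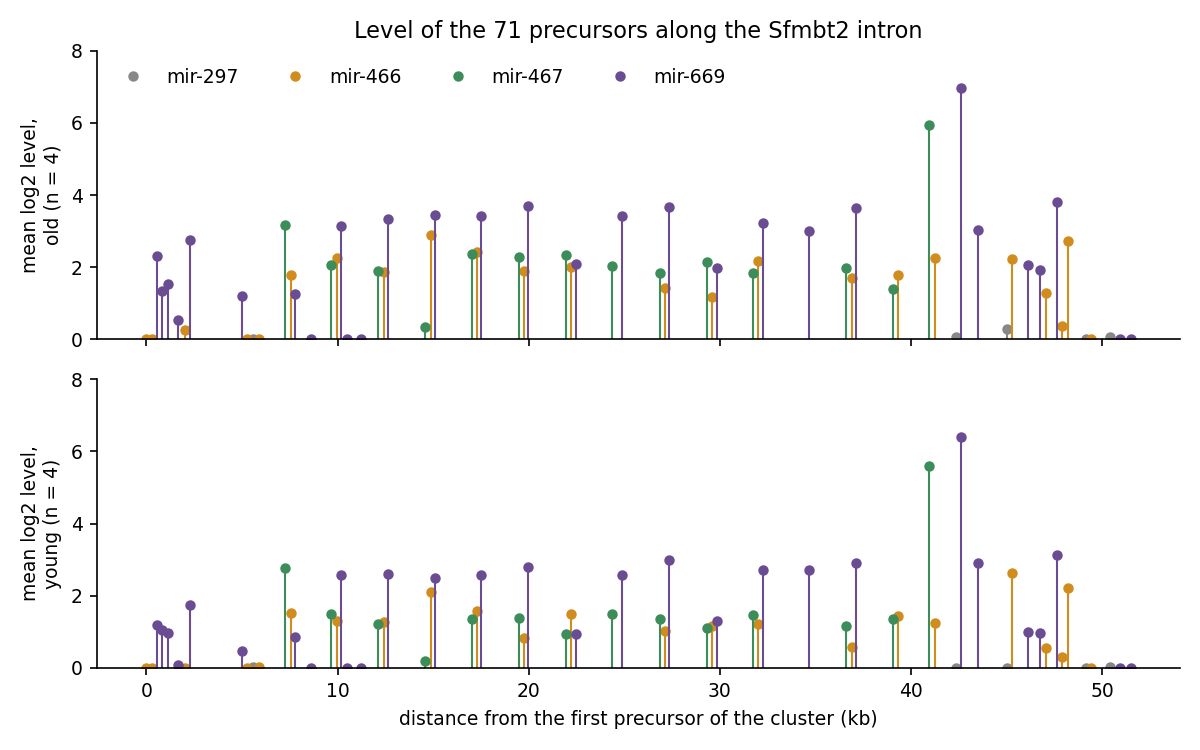
Mean log2 level (vertical axis, n = 4 libraries) of the 71 members inside Sfmbt2 against distance from the first of them in kb (horizontal axis), for old mice above and young mice below. The highest points lie at 40.97 kb (mir-467d) and 42.63 kb (mir-669c), after an even row of lower repeat units.

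Reads were recovered from each value as the linear value times precursor length and library size. They summed to 10214 over all members and libraries, of which mir-669 held 6448, mir-467 2191, mir-466 1550 and mir-297 25. mir-669c alone held 29.6%, and mir-669c and mir-467d together 41.3%. The 18 members from mir-467d to the 3′ end of the cluster held 52.3%. In reads per M reads of the library (RPM), the members summed to 40.2, 82.4, 25.2 and 57.9 in old 1 to old 4, against 23.2, 26.1, 20.3 and 66.8 in young 1 to young 4. The means were 51.4 ± 24.6 in old and 34.1 ± 21.9 in young (SD, n = 4 each), a difference smaller than the spread within either age. Old 2, young 4 and old 4 held the most, and old 3 lay among young 1 to young 3. These sums leave out reads of members under the floor.

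**Figure D3:**
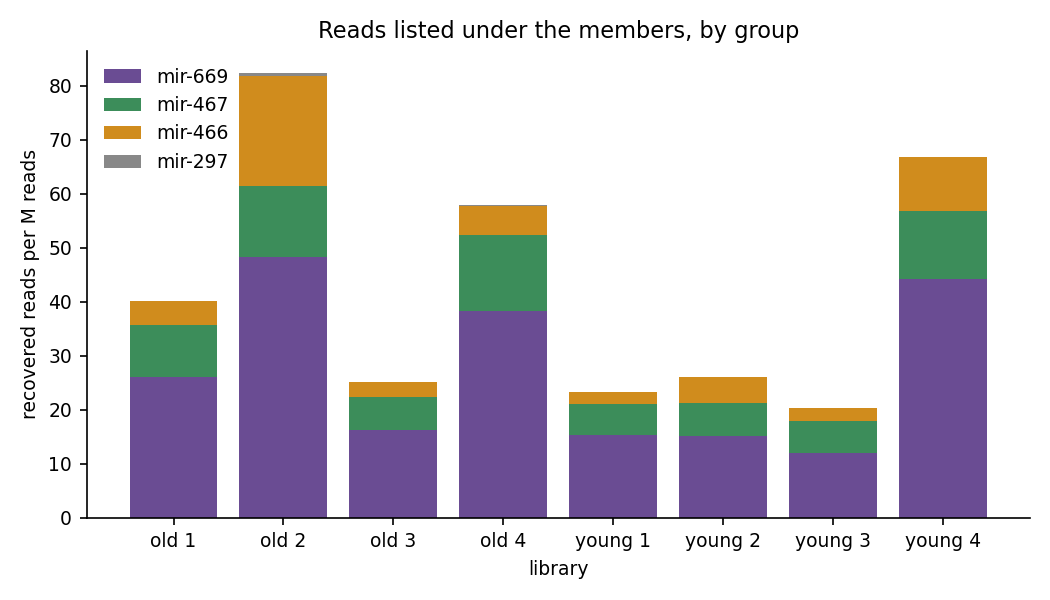
Recovered reads per M reads of the library (vertical axis) listed under mir-669, mir-467, mir-466 and mir-297 members, stacked, in each library (horizontal axis). Old 2 at 82.4, young 4 at 66.8 and old 4 at 57.9 stand above the other 5 libraries, which range from 20.3 to 40.2.

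Without both old 3 and young 4 the sums were 60.1 ± 21.2 RPM in old and 23.2 ± 2.91 RPM in young (SD, n = 3 each). The wider gap was fixed by the choice, since old 3 had the lowest old sum and young 4 the highest young one. The libraries low in the Dlk1-Dio3 region, old 1, old 2, old 4 and young 4, were the same 4 that held the most member reads; the cause was not tested.

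Each group had its own order of libraries. The mir-669 precursors summed to 26.0, 48.3, 16.2 and 38.3 RPM in old 1 to old 4, against 15.3, 15.2, 11.95 and 44.2 in young 1 to young 4. The mir-467 precursors summed to 9.77, 13.2, 6.18 and 14.1 RPM in the old libraries, against 5.67, 6.07, 5.93 and 12.7 in the young. In both groups old 1, old 2, old 4 and young 4 lay above the other 4 libraries. The mir-466 precursors summed to 4.44, 20.3, 2.82 and 5.30 RPM in the old libraries, against 2.23, 4.82, 2.45 and 9.90 in the young. Here old 2 held more than the other 3 old libraries together, and young 2 lay above old 1. Read by age, the means were 32.2 ± 14.1 and 21.7 ± 15.1 RPM for mir-669, 10.8 ± 3.62 and 7.58 ± 3.39 for mir-467, and 8.21 ± 8.11 and 4.85 ± 3.57 for mir-466 (old and young, SD, n = 4 each). Each difference was smaller than the spread within either age. Without both old 3 and young 4 they were 37.6 ± 11.2 and 14.1 ± 1.90, 12.4 ± 2.30 and 5.89 ± 0.20, and 9.999 ± 8.90 and 3.17 ± 1.44 RPM (n = 3 each). In each of these groups old 3 was the lowest old library and young 4 the highest young one, so the gaps had to widen.

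The comparison of old with young used 359 precursors, those that reached a linear value of 10 (3.32 on the log2 scale) in 4 or more libraries. Of the 81 members 6 passed this filter, namely 3 copies of mir-669a (mir-669a-9, mir-669a-7 and mir-669a-5) with mir-669c, mir-467d and mir-669o. In limma with Benjamini-Hochberg adjustment 0 of the 6 were called, against 0 of 359 (0%) overall. At an unadjusted p under 0.05 the counts were 0 of 6 and 4 of 359 (1.11%). These unadjusted counts depended on the setting: with array weights they were 3 of 6 and 27 of 359, without young 4 they were 3 of 6 and 27 of 359, and without both old 3 and young 4 they were 4 of 6 and 59 of 359. In a two-sided exact permutation test over 70 arrangements the p of the 6 ranged from 0.143 for mir-669a-9 to 0.400 for mir-467d. In 6 of 6 the mean was higher in old, against 165 of 359 (46%), and 0 of 6 had ages that did not overlap, against 3 of 359 (0.836%). The median difference of the 6 was 0.68 (log2, old minus young), against -0.05 over the 359. The filter bears on this count and median: mir-669a-7 and mir-669a-9 reached it in 4 old libraries and 1 young one, and mir-669a-5 in 3 old and 1 young. mir-669o reached it in 3 old and 2 young libraries, and mir-669c and mir-467d in all 8. A higher mean in old was thus partly fixed by the filter for the 3 mir-669a copies, and may have been for mir-669o. The count and the median are given as a description only. Since 3 of the 6 are numbered copies of mir-669a and all 6 lie in 1 intron, they are not 6 separate observations.

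The difference was 0.58 for mir-669c, with a standard error of 0.54 and a 95% interval from -0.63 to 1.80 (limma adjusted p = 0.995). For mir-467d it was 0.36 with an interval from -0.70 to 1.42. mir-669o, near the 3′ end of the cluster, measured 3.96, 4.72, 2.66 and 3.90 in the old libraries, against 3.47, 2.69, 1.93 and 4.45 in the young, a difference of 0.68 (interval -0.83 to 2.18). It was 0.27 without young 3, 0.37 without old 2, 1.06 without old 3 and 1.11 without young 4. Its highest and lowest libraries were old 2 and young 3, and young 4 was second highest.

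The 3 compared copies of mir-669a shared a pattern in which young 4 was the highest library. mir-669a-5 measured 3.52, 4.07, 2.62 and 3.57 in the old libraries, against 2.20, 1.51, 2.07 and 4.17 in the young, a difference of 0.96 (interval -0.51 to 2.42). mir-669a-7 measured 3.42, 4.25, 3.39 and 3.68 against 2.61, 2.21, 2.07 and 4.29, a difference of 0.89 (interval -0.42 to 2.20). mir-669a-9 measured 3.57, 3.68, 3.45 and 3.96 against 2.61, 2.42, 2.74 and 4.17, a difference of 0.68 (interval -0.46 to 1.82). In all 3 copies each old library lay above young 1, young 2 and young 3 and below young 4. These copies passed the filter mostly through old libraries, so this order was partly fixed by the filter. Among the copies just outside the filter, mir-669a-1 and mir-669a-6 had the same order. It was broken in mir-669a-4, mir-669a-8, mir-669a-10, mir-669a-11 and mir-669a-12.

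**Figure D4:**
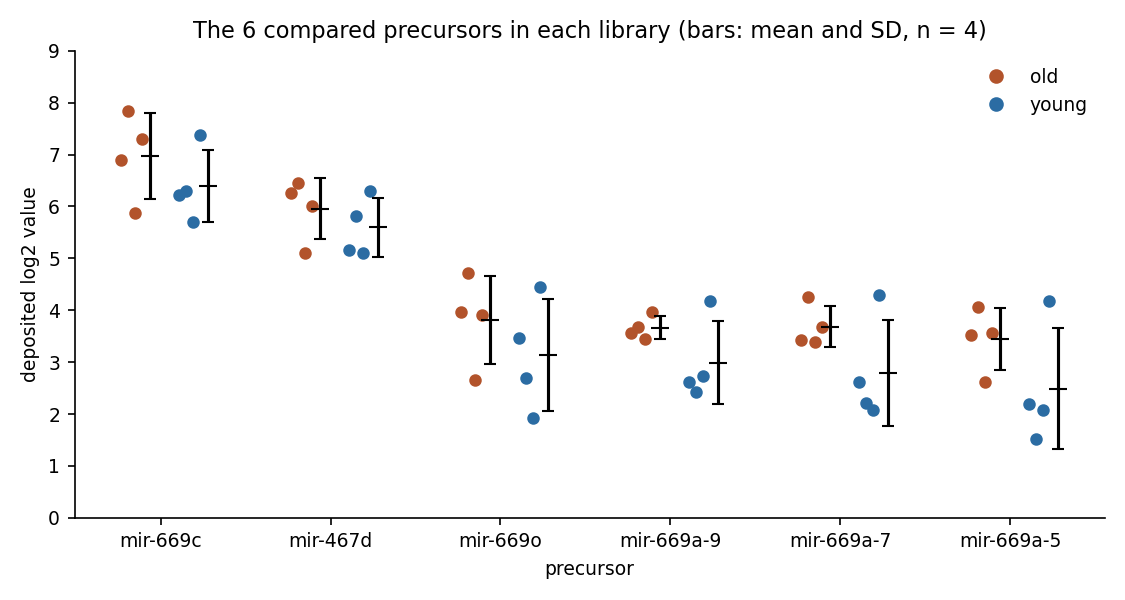
Deposited log2 value (vertical axis) of the 6 compared members (horizontal axis) in old and young libraries, each point 1 library, with the mean and SD (n = 4) beside them. In each member the ages overlap, and in the mir-669a copies young 4 lies above all other young libraries.

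Leaving out young 4 raised the median difference of the 6 members from 0.68 to 1.09, and leaving out both old 3 and young 4 raised it to 1.38. The differences of mir-669c and mir-467d were then 1.27 and 0.87. Leaving out old 2 alone lowered that of mir-669c to 0.29 and that of mir-467d to 0.20, and leaving out young 3 alone lowered them to 0.35 and 0.20. Without old 3 alone they were 0.95 and 0.64, without young 4 alone 0.91 and 0.59, and without young 1 that of mir-467d was 0.22. Without young 4 the difference was 1.07 for mir-669a-9, 1.39 for mir-669a-7 and 1.52 for mir-669a-5, and without young 2 that of mir-669a-5 was 0.63. Without both libraries 33 of 359 precursors were called in limma, none of them members, and the smallest member adjusted p was 0.122 (mir-669a-5). These calls rest on 3 libraries an age, chosen after their values were seen. In each of the 6 members old 3 was the lowest old library and young 4 the highest young one. Larger differences without both were therefore fixed by that choice. In the fit with the reads of numbered copies summed, 7 member names could be compared (mir-466b, mir-466c, mir-467a, mir-467d, mir-669a, mir-669c and mir-669o), with a median difference of 0.68 and 0 called.

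Members below the filter were again highest in old 2, old 4 or young 4 where they are given here. mir-467c measured 2.02, 3.57, 2.90 and 4.23 in the old libraries, against 2.26, 2.60, 2.33 and 3.84 in the young. Old 4 and young 4 were its highest libraries. mir-669f, a long precursor near the 5′ end of the cluster, measured 2.69, 3.04, 0.91 and 2.64 in the old libraries, against 0.13, 0, 1.47 and 3.17 in the young. Young 4 was the highest here and young 2 was at the floor. mir-466h measured 1.99, 3.83, 2.08 and 2.97 in the old libraries, against 2.30, 2.32, 1.40 and 2.85 in the young. mir-466d, one of the few with a lower mean in old, measured 2.38, 4.0, 0.25 and 2.31 in the old libraries, against 1.93, 2.28, 2.43 and 3.86 in the young. For both mir-466 precursors old 2 was the highest library and the ages overlapped. These 4 members were chosen after their values were seen.

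At the edge of the filter, mir-669a-5 passed with 4 libraries, 3 old and 1 young. Just outside, with 3 libraries each, were mir-467c and 7 further copies of mir-669a, whose differences ranged from 0.30 to 0.84. Over all 63 detected members, with no filter, the mean was higher in old in 59, against 401 of 781 (51.3%) of all detected precursors. Of these 63 members 61 lie in 1 intron, and many are numbered copies that may share reads. The 59 are thus not separate observations, and the count is given as a description only. Differences of the 63 ranged from -0.39 (mir-466q and mir-466d) to 1.40 (mir-467a-5), with a median of 0.57 against 0.01 over the 781. At an unadjusted p under 0.05 limma gave 1 of 63, mir-467a-5 (p = 0.0388, adjusted p = 0.982), against 19 of 781 (2.43%). mir-467a-5 measured 1.78, 2.59, 2.20 and 2.75 in the old libraries, against 0.68, 0, 0.56 and 2.46 in the young, and its exact permutation p was 0.0857. The ages did not overlap in 0 of 63, against 8 of 781 (1.02%), and 0 members were above 0 in at least 3 libraries of 1 age and at 0 in all of the other, against 7 of 781 (0.896%).

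The same few libraries were high in most members. Of the 63 detected members 61 had their highest value in old 2 (31), young 4 (16) or old 4 (14). Which of the 3 it was differed by group. Of the 20 detected mir-466 members 16 were highest in old 2. Of the 14 mir-467 members 10 were highest in old 4 and 3 in old 2. Of the 24 mir-669 members 13 were highest in young 4, 8 in old 2 and 3 in old 4. mir-297 was highest in old 2 in 4 of 5.

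The mix of the 4 groups therefore differed between libraries of the same age. mir-466 made up 24.6% of the member reads of old 2 (exact 95% interval 22.8% to 26.5%) and 18.5% of those of young 2 (15.9% to 21.2%). In the other old libraries it was 11%, 11.2% and 9.15%, and in young 1, young 3 and young 4 it was 9.61%, 12% and 14.8%. The interval of old 2 lay above those of the other 7 libraries. Intervals cover counting error only, and reads of one PCR product are not separate molecules. The 8 numbered copies of mir-466b held 260 reads in old 2, beside 407 of the 12 copies of mir-669a, a ratio of 0.639 (interval 0.545 to 0.748). In young 2 the ratio was 0.433, and in the other 6 libraries it lay between 0.140 and 0.201.

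Reads of mir-467a moved apart from those of mir-467d, which bears the same number and lies near the 3′ end of the cluster. In old 4 the 10 copies of mir-467a held 152 reads and mir-467d 138, a ratio of 1.10 (interval 0.869 to 1.40). In young 2 they held 18 and 153, a ratio of 0.118 (0.0679 to 0.192). The other old libraries had ratios of 0.409, 0.585 and 0.818 and the other young ones 0.598, 0.854 and 0.588, and the ages overlapped. In young 2, 5 of the 9 mir-467a copies of 83 bases were at 0, whereas mir-467d in the same library stood at 5.81. Reads of copies under the floor are left out. The young 2 ratio and share of mir-467a may thus be too low, which the intervals do not cover.

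**Figure D5:**
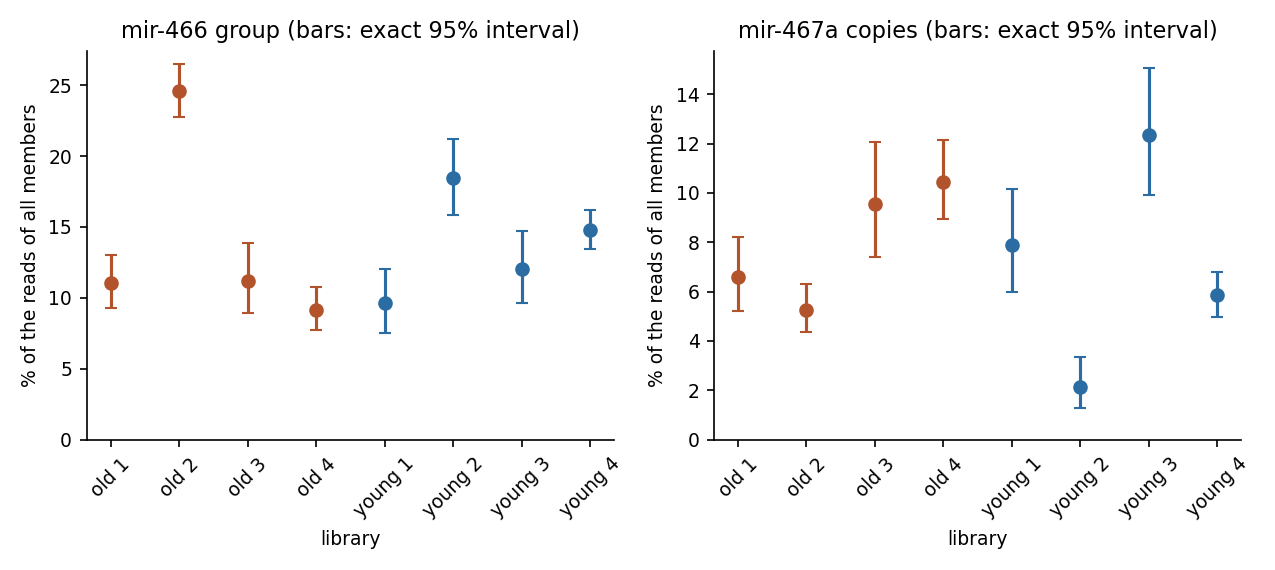
Share of all member reads in % (vertical axes) held by the mir-466 group (left) and by the numbered copies of mir-467a (right) in each library (horizontal axes), old in brown and young in blue, with exact 95% intervals. Old 2 is highest for mir-466 at 24.6%, and young 2 is lowest for mir-467a. Reads of copies under the floor are not counted, and the intervals do not cover this.

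Numbered copies may share reads, and how a read matching more than 1 copy was counted is not given in the sources used here. No pair of members listed the same reads in the sense of a constant log2 difference equal to their length ratio within 0.03 in at least 4 libraries. This rule finds only copies with identical counts, and cannot see reads divided among copies. The 9 copies of mir-669a of 87 bases held 8 to 15 reads each in young 2 and 52 to 72 in young 4. Their variance over copies divided by their mean ranged from 0.381 to 2.42 over the 8 libraries. For the 9 copies of mir-467a of 83 bases it ranged from 0.302 to 3.0. Levels of single copies are given as uncertain for this reason. Summed in RPM, mir-669a held 8.01, 15.7, 6.98 and 14.5 in old 1 to old 4, against 5.0, 4.67, 5.01 and 18.1 in young 1 to young 4. mir-467a held 2.65, 4.35, 2.40 and 6.05 in the old libraries, against 1.83, 0.56, 2.51 and 3.91 in the young. In both, young 4 lay within the range of the old libraries or above it.

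Markers of other cell types were read beside these levels. The 8 muscle precursors were above 0 in some library, 5 of them in all 8. The log2 of their summed linear values was 16.18 to 16.64 in old and 15.16 to 17.23 in young libraries, lowest in young 4. mir-206 was at 15.67 or above everywhere except young 4, at 14.78, and mir-208b was at 0 in old 4 and young 4. Of the others, mir-1a-1, mir-133a-1, mir-133a-2 and mir-499 were lowest in young 4. mir-133b was highest in old 4 (13.28) and lowest in old 2 (10.17), with 11.05 in young 4. mir-1a-2 was also highest in old 4 (2.47), and it was at 0 in young 4. All 5 fibroblast and smooth muscle precursors were above 0 in every library, with a log2 of the summed linear values of 15.36 to 15.84 in old and 14.58 to 15.65 in young. Among them mir-214 was highest in the 3 libraries that held the most member reads, at 13.16 in old 2, 13.16 in old 4 and 13.07 in young 4, against 11.69 to 12.47 in the other 5. mir-199a-1 and mir-199a-2 were also highest in these 3, at 11.64, 12.42 and 12.12 and at 11.04, 11.82 and 11.54. The other 2 had other orders: mir-143, the most abundant, was highest in old 1 (15.56) and stood at 15.34 in old 2, 14.89 in old 4 and 14.81 in young 4, and mir-145a was highest in young 1 (9.70). The endothelial mir-126a was 3.32 to 4.34 in old and 2.96 to 5.11 in young libraries, highest in young 4. Of 4 blood precursors 3 were at 0 everywhere (mir-142, mir-144 and mir-223), and mir-451a reached 0.89 in young 1. Of 10 pluripotent precursors 8 were at 0 everywhere, and mir-291a reached 0.80 in old 1. Of 6 neural precursors 6 and of 5 epithelial ones 3 were above 0 in some library. The log2 of their summed linear values was 2.20 to 4.49 and 0.71 to 2.17 in old and 2.83 to 4.12 and 0 to 3.42 in young. The part of other cells in the member levels was not tested, and in bulk RNA fewer cells of a type and less RNA per cell cannot be told apart.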

How the data were processed

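Small RNA of 8 myoblast samples, 4 old and 4 young mice, was, per the labels, isolated by mirVana and read on an Illumina GAIIx instrument. BWA and mm10 stand in the submitters' processing notes; of trimming and of how multiply matching reads were counted, the sources used here say nothing. Log2 values of 1181 precursors, with a floor of 0, are what the authors deposited. From the values, the linear value times length fell on whole steps for 99.1% to 100% of the low values in each library (up to 12 reads, tolerance 0.1 of a read), as RPKM would be. The step gives library sizes of 25.1 to 39.4 M reads, and reads per precursor were recovered from it. limma 3.58.1 in R (eBayes with trend) was run on the log2 values of 359 precursors (linear value reaching 10 in 4 or more libraries), with Benjamini-Hochberg adjustment and a threshold of 0.05. It was tested on simulated data with independent noise and differences larger than those of the members. That test does not show whether differences of the members' size would be called. Intervals are 95%, exact (Clopper-Pearson) for shares. For single members, an exact permutation test over 70 arrangements can give no p below 0.0286.

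The members and the lists were chosen with earlier results of these data known. Named were the members that passed the filter, the highest of each group, those seen in 1 age, and those at the edge of the filter; any others were picked once their values were known. Positions came from RefSeq and GENCODE (GRCm38), for 81 of 81 members, mir-466a by its name without the letter. Alternatives were other filters, pseudocounts, rescalings, weights, the replicate number as a block, leaving out each library and voom on recovered reads. Summing or counting numbered copies once, a sum without mir-669c and mir-467d, and the fit that leaves out old 3 together with young 4 were chosen after seeing the data. Python 3.11.15 was used for the rest.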

Additional observations from a re-analysis of the deposited data

Results flagged for a closer look

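A library was singled out where its gap to the nearest library of its age, divided by the range of the 4, exceeded Dixon's 95% critical value; this held in 8 of 34 sets of 4 examined, where chance alone gives about 1 in 20, and the sets share libraries and reads. In old mice old 2 was far above the others for mir-466 (20.3 reads per M reads), for the mir-466b copies (9.998 reads per M reads) and for the share of mir-466 in the member reads (24.6%), and far below them for the share of mir-467 (16.0%). In young mice young 4 was far above the others for mir-467 (12.7 reads per M reads), mir-669 (44.2 reads per M reads), the mir-669a copies (18.1 reads per M reads) and all members together (66.8 reads per M reads).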

How the results depend on the processing

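The count of called members was 0 in all 21 alternatives run, and in 115 of 115 refits of single members the difference stayed positive, at an adjusted p no lower than 0.122. These refits reuse the same libraries and members of 1 intron, so they are not separate observations. For the compared mir-669a copies the direction was also partly fixed by the filter, and for mir-669o it may have been. The count of called precursors was 0 in all but 1 of the alternatives, the fit without both old 3 and young 4, which gave 33. The median member difference of 0.68 ranged from 0.34 (pseudocount 10) to 1.38 (without both old 3 and young 4), with 1.02 under array weights. When each library was left out in turn it ranged from 0.47 to 1.09 (without young 4). The log2 difference of the summed linear member level was 0.64 and ranged from 0.37 (without old 2) to 1.02 (without young 4), and was 1.32 without both old 3 and young 4. Leaving out both had to raise the median and this difference, as old 3 was the lowest old library and young 4 the highest young one. The labels do not say that the replicate numbers pair the mice. Deviations from the age mean of same-numbered old and young libraries correlated at -0.06, 0.43, 0.66 and 0.58 for numbers 1 to 4. The highest correlation of the same old library with a young library of another number was 0.10, 0.19, 0.45 and -0.16. The same-numbered value was thus the higher one for numbers 2, 3 and 4. Whether the numbers mark a shared batch was not tested. With the replicate block limma called 0 precursors, and the median difference was 0.68. An unadjusted p under 0.05 was then given to 39 precursors, against 4 in the main fit. Averaging or counting once the copies that list the same reads was not run, since 0 such pairs were found at tolerances of 0.01, 0.03 and 0.06. That count does not show that copies share no reads, since reads divided among copies would not meet the rule. The filter was not reached by 75 of the 81 members, and whether depth or low expression sets this was not tested.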
